A study of Mus musculus with 7 samples.

Results

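Thyroid follicular cells (TFCs) take up iodide, build thyroid hormone on the large protein thyroglobulin in the follicle lumen, and take the protein back up to cut the hormone out of it in lysosomes. Grown in basement membrane extract they form thyroid follicular cell organoids (TFCOs), which can be split and replated many times, and each round of splitting is a passage. The comparison described here asked how TFCO cells with little sign of G2 phase or mitosis differed between late and early passage. All organoids came from wild-type C57BL/6 mice, were grown in a medium with R-spondin, the TGF beta receptor inhibitor A83-01, forskolin (which raises cAMP), EGF and FGF10, and received no further treatment. There were 3 late and 2 early samples, and the passage number of each sample is not given in the sources used here.

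The cells were chosen by measured values. A cell was kept if it held at least 1000 unique molecular identifiers (UMIs, each standing for 1 captured RNA molecule) and had a UMI for at most 1 of 9 genes of G2 phase and mitosis (Mki67, Top2a, Ccnb2, Ccna2, Ube2c, Birc5, Cenpf, Tpx2 and Cenpa). This gave 1051 noncycling cells out of 1457 organoid cells of that depth, 1843 organoid cells in all and 2590 cells in the whole series. The late samples held 276, 204 and 190 of them and the early samples 118 and 263. The other 406 cells are called cycling below. Just inside the rule, with exactly 1 of the 9 genes, were 66, 95 and 62 late and 53 and 91 early cells, and just outside it, with 2 genes, were 13, 60 and 18 late and 38 and 29 early cells. The 9 genes chose the cells, so their levels are no result. The rule does not cover S phase, so cells copying their DNA could remain among the noncycling cells. Of 45 genes of DNA replication, at most 1 had a UMI in 61, 13 and 28 late and 22 and 55 early noncycling cells.

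Every comparison rests on 1 value per sample, the mean over its noncycling cells of a gene's UMIs scaled to 10000 UMIs per cell. This value is called the level below. The noncycling cells held 1686179, 2352775 and 1718599 UMIs in the late and 921713 and 1726846 UMIs in the early samples. Their median depth was 5605, 10978.5 and 8121 UMIs in late and 6394 and 4309 UMIs in early cells. Cycling cells made up 10.1, 43.3 and 21.5% in late and 49.8 and 16.0% in early samples. Depth and cycling share thus overlapped between the groups and varied widely within them. The sources do not state which cultures the samples of a group came from, so the spread between them may be technical, and with 3 samples against 2 an exact permutation test of a single gene cannot go below p = 0.1. The 372 plate wells that gave a noncycling cell were shared between samples in 335 cases, since all plates carry the same set of barcodes.

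The cells carried the markers of TFCs. All 10 follicular markers were measured well enough to be tested, and summed to 182, 127 and 218 in late and 124 and 171 in early samples. Haemoglobin genes, Pth of the parathyroid, Krt5 of basal epithelium and C1qa of macrophages were at 0 in all 5 samples. The summed level of 6 stromal markers lay between 0.236 and 0.705, that of 5 mural markers between 0.0685 and 0.243, that of 6 immune markers between 0.0382 and 0.133, that of 3 C cell markers between 0.0282 and 0.162, and that of 3 ciliated cell markers between 0.0230 and 0.0710, with no member of these lists high enough to be tested. The 5 endothelial markers summed to 1.33, 1.20 and 1.28 in late and 1.59 and 2.10 in early samples. Of these, Pecam1 and Flt1 were the members high enough to be tested, and both were lower in every late sample than in either early sample. Casr, the calcium-sensing receptor that stood in the parathyroid list, was at 0.545, 0.664 and 0.558 in late and 0.984 and 1.40 in early samples, while Gcm2, a defining factor of that gland, was at 0 in 4 of 5 samples. Trp63, a factor of basal epithelium, overlapped between the groups at 0.949, 0.662 and 1.02 against 0.855 and 1.27.

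Of 4619 genes tested with limma (Benjamini-Hochberg adjusted p under 0.05), 1 passed, which is a background of 0.0216%. The unadjusted p was under 0.05 for 1011 genes, 376 higher and 635 lower in late cells, and the second lowest adjusted p was 0.102. The count depended on the samples used and on the terms of the fit. Without early replicate 1, 415 genes passed, 18 higher and 397 lower in late cells, with the lone early sample assumed to vary like the late ones, and with the share of cycling cells as a term in the fit 427 passed, 77 higher and 350 lower. Many more genes separated the samples without passing the test. All 3 late samples lay above both early samples for 899 genes (19.5%), and all 3 lay below both for 1012 genes (21.9%). These shares are the background against which the gene lists below are read. The median log2 difference of late minus early, taken on log2 of the level plus 1, was 0.02 over all tested genes.

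The gene that passed was Rpsa-ps10, annotated as a processed pseudogene of the ribosomal protein gene Rpsa at chr3:150072658-150073542 of GRCm38 on the minus strand. Rpsa itself, on chromosome 9, encodes a protein of the small ribosomal subunit that also serves as a laminin receptor. The annotated transcripts matched without a gap over all 885 bases of the pseudogene and differed at 6 of them, an identity of 99.3%. The last 300 bases of the pseudogene transcript, at chr3:150072658-150072957, are shown with the same stretch of Rpsa because the method reads transcripts from their 3′ end and because they show how little sequence tells the 2 genes apart. Capitals mark the bases that differ, of which there are 2 in this stretch.
Rpsa-ps10: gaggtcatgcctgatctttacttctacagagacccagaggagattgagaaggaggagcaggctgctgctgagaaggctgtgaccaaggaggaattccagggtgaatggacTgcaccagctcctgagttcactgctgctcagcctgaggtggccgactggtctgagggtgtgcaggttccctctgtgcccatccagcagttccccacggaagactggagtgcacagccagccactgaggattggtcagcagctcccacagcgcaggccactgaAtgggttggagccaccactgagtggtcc
Rpsa: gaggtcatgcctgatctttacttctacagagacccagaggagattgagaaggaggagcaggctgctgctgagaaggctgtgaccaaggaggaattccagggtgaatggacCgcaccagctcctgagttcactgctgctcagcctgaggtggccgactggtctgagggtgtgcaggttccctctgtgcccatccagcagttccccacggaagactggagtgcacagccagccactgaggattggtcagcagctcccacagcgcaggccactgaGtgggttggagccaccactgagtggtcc
Counted from 1 at the first base of the pseudogene transcript, with the base of Rpsa first, the 2 differences shown are C696T and G858A. Of all 836 stretches of 50 bases in the pseudogene, 624 (74.6%) occurred unchanged in Rpsa and 688 in a transcript of any other gene, so most reads of that length could not be assigned to it by sequence alone.

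Rpsa-ps10 was at 6.21, 5.82 and 7.25 in the late samples and at 0.784 and 0.584 in the early samples. The late values lay well above the early ones and close to each other, with a log2 difference of 2.14 (SE 0.188, limma adjusted p = 0.00193). They rested on 1184, 1275 and 1217 UMIs in late and 39 and 146 UMIs in early cells. Rpsa was at 3.11, 2.61 and 3.57 in late and 1.21 and 1.16 in early samples, so it lay higher in the late samples too. The pseudogene took 66.6, 69.0 and 67.0% of the level of both genes together in late samples and 39.4 and 33.6% in early samples. In the tissue samples, whose noncycling cells were of many types, it took 2.64 and 0.421%, with Rpsa at 1.55 and 2.00. With every cell thinned to 1000 UMIs, 38.0, 37.7 and 45.8% of late cells and 9.32 and 7.22% of early cells had a UMI for Rpsa-ps10, and without thinning the shares were 75.7, 91.2 and 90.5% against 25.4 and 31.6%. In cycling cells it stood at 6.76, 5.59 and 7.22 in late and 0.271 and 1.17 in early samples. All late samples again lay above both early samples, while the early samples changed places. The difference in noncycling cells was 2.19 on the log2 scale in cells of at least 8000 UMIs, close to that over all depths. Without early replicate 2 the adjusted p was 0.0509 and the log2 difference 2.05, so the call was lost, while without early replicate 1 it was kept (limma adjusted p = 0.0029, log2 difference 2.22). How the authors' counting shared reads between gene and pseudogene is not given in the sources used here, so the level of each alone is uncertain.

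The separation of other genes followed the length of genome they span. Transcripts are copied from the whole span, introns included, and introns are then spliced out. A span from the GENCODE annotation was found for 4558 of the 4619 genes (98.7%), with a median of 51.3 kb. The median span was 14.6 kb for the genes with all late samples above and 170 kb for those with all late samples below. Among 420 genes of up to 5 kb, 52.9% had all late samples above both early samples and 5% had them below. Among 221 genes of over 500 kb, none had the late samples above and 165 (74.7%) had them below. The shares changed in steps through all 8 classes between these ends, and the median log2 difference fell from 0.29 in the shortest class to -0.43 in the longest.

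**Figure D1:**
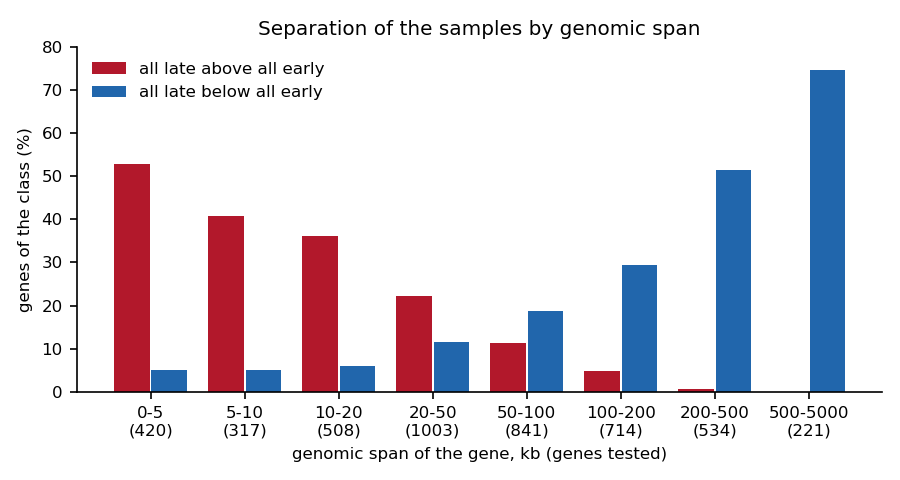
Percentage of tested genes of each class of genomic span (x axis, kb, with the number of genes) for which all 3 late samples lay above both early samples (red) or below both (blue). Red falls from 52.9% to 0% and blue rises from 5% to 74.7% as the span grows.

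Genes of over 100 kb gave 23.7, 24.6 and 22.5% of the UMIs of a noncycling cell on average in the late samples and 28.6 and 32.0% in the early samples. Genes of up to 20 kb gave 42.1, 42.4 and 43.2% in late and 36.5 and 33.0% in early samples. Early samples were thus the higher ones for long genes and the lower ones for short genes, without overlap. The share of long genes also depended on cell depth, and most in early replicate 2. There it was 36.4% in 39 cells of 1000 to 2000 UMIs, 36.5% in 84 cells of 2000 to 4000 UMIs, 29.2% in 60 cells of 4000 to 8000 UMIs and 27.2% in 80 cells of at least 8000 UMIs. In early replicate 1 the same classes gave 31.7, 29.3, 27.5 and 27.8%, and the late samples stayed between 22 and 25.5% in every class. In cells of at least 8000 UMIs the 3 late samples were at 23.5, 24.7 and 22.6%, still below both early samples but with a smaller gap. Cell depth thus moved with this gradient within the early samples, and its part in the difference between passages was not tested beyond these depth classes.

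**Figure D2:**
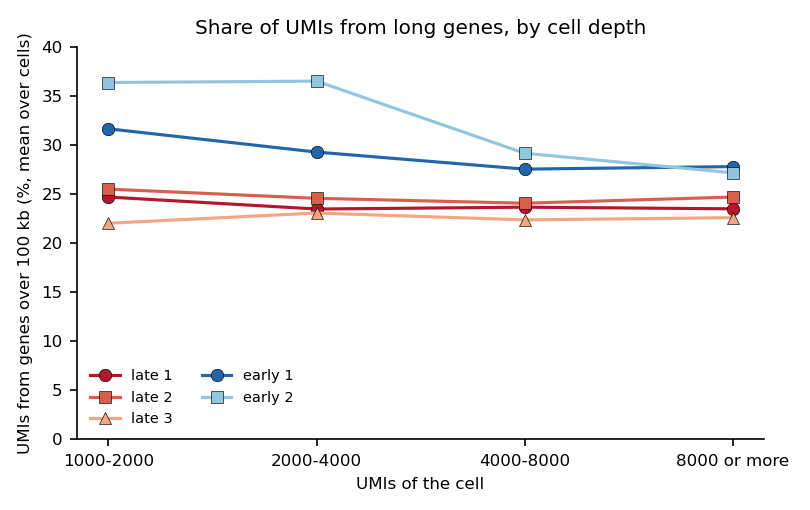
Mean share of a noncycling cell's UMIs that came from genes spanning over 100 kb (y axis, %), by UMI count of the cell (x axis) for the 3 late (red) and 2 early (blue) samples. Early replicate 2 falls from 36.4% in the shallowest to 27.2% in the deepest cells, and the late samples lie between 22 and 25.5% throughout.

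The span gradient bears on each gene list below, since short genes make up some lists and long genes others. The main lists are therefore also given with their counts in cells of at least 8000 UMIs (called deeper cells) and after each sample was centred within classes of span, 2 settings chosen after the data were seen. Over all genes, all late samples were above in 12.9% and below in 17% of the genes tested in the deeper cells, and in 16.4 and 14.5% after centring within span.

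Ribosomal protein genes, which are set aside here apart from this count, differed in the same direction for most members. All late samples were above both early samples for 73 of 78 tested members, none was below, and the median log2 difference was 0.61. Their median span was 3.27 kb. The counts were 55 above in deeper cells and 56 above and 1 below after centring within span, of 78 in each case.

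Genes whose products work beside the ribosome separated on the same side. Among 40 tested translation factors, 21 had all late samples above and 2 below, with a median log2 difference of 0.23. Tpt1, a small abundant protein whose transcript is under translational control, was at 60.9, 33.7 and 45.5 in late and 24.9 and 24.2 in early samples (log2 difference 0.86, SE 0.36). Eef2, which moves the ribosome along the message, was at 11, 9.05 and 15.0 in late and 7.26 and 5.99 in early samples. Eef1a1, which delivers aminoacyl-tRNA, was at 14.5, 12.7 and 16.8 against 9.97 and 8.18. Every late value of these 3 genes was above every early value, and none passed the adjusted threshold. Rack1, a scaffold protein bound to the small ribosomal subunit whose introns also hold small nucleolar RNAs, was at 9.94, 6.49 and 7.82 in late and 4.45 and 3.62 in early samples (0.84, SE 0.25, limma adjusted p = 0.14). The small nucleolar RNA hosts Gas5 and Zfas1 separated in the same direction, so that 3 of the 4 tested members of that list lay above, and 2 of 4 both in deeper cells and after centring within span. The translation factors were reduced to 13 above and 1 below in deeper cells and to 11 above and 3 below after centring within span. Ubb, a gene for polyubiquitin, was at 10.3, 7.51 and 11.6 in late and 5.53 and 5.24 in early samples, although 48.1% of its 50-base stretches occur in other genes. Of 7 tested members of the ribosome biogenesis list, 3 lay above and 2 below. The counts were 1 above and 2 below in deeper cells and 2 above and 2 below after centring. Among the 2 below was Polr1b, a subunit of RNA polymerase I, at 1.61, 1.87 and 3.09 in late and 3.88 and 3.91 in early samples.

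**Figure D3:**
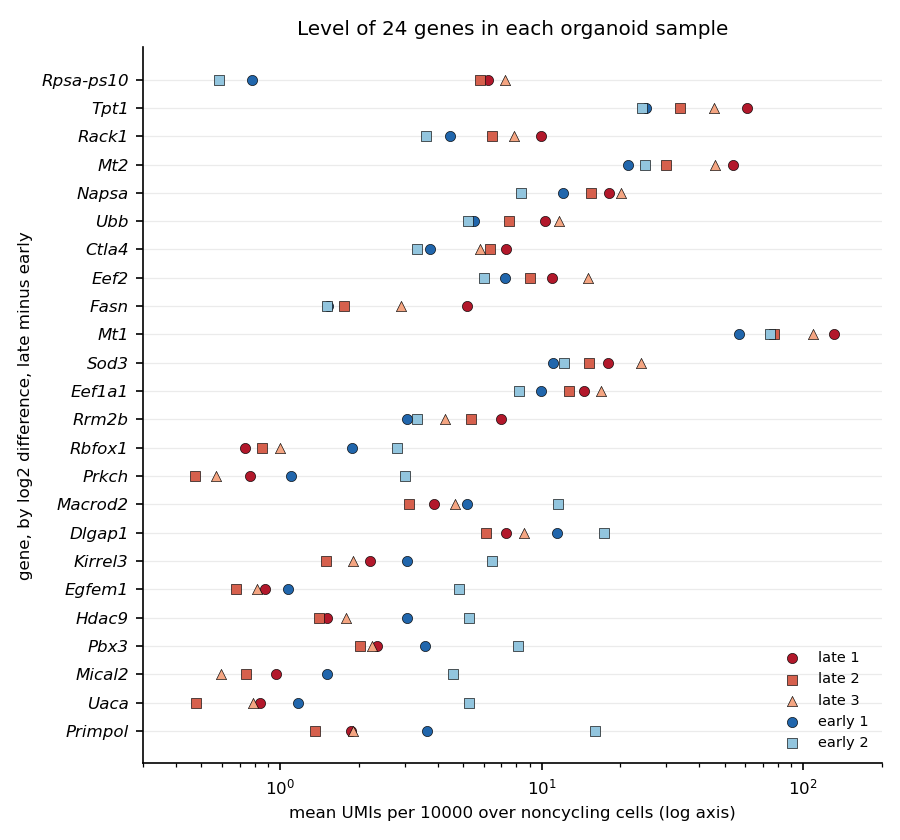
Level (mean UMIs per 10000 over noncycling cells, log axis) of Rpsa-ps10 and of 12 other genes higher and 11 lower in late samples, taken from those with the largest log2 differences whose samples did not overlap, in each late (red) and early (blue) sample. Most of the genes lower in late samples, at the bottom, have early replicate 2 far above early replicate 1, with Primpol at 16.0 against 3.66.

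Nuclear genes of oxidative phosphorylation lay above in the late samples for most members, and the tested members of a mitochondrial genome list did not separate. The respiratory chain and ATP synthase in the inner mitochondrial membrane are built from subunits encoded in both genomes. Of 59 tested nuclear genes of complexes I to V, 43 had all late samples above both early samples and 2 had them below, with a median log2 difference of 0.31. By complex, the late samples were above for 14 of 24 genes of complex I, 8 of 11 of complexes II and III, 8 of 10 of complex IV and 13 of 14 of ATP synthase. With members too low to be tested included, the levels of these lists together summed to 113, 100.3 and 112 in late and 83.4 and 68.6 in early samples. Differences were largest in Ndufa1 of complex I, at 3.45, 2.24 and 3.19 in late and 1.70 and 1.43 in early samples (0.61, SE 0.19), Uqcrq of complex III, at 1.64, 1.77 and 2.66 against 0.823 and 1.23 (0.57, SE 0.18), and Cox7c of complex IV, at 3.37, 2.52 and 2.44 against 1.66 and 1.42 (0.56, SE 0.18). Among ATP synthase genes, Atp5g1, for the rotating c ring, was at 1.09, 1.38 and 1.20 in late and 0.652 and 0.514 in early samples. Below were 2 members, Atp5o, at 0.550, 0.545 and 0.702 against 1.12 and 1.40, and the complex I assembly factor Ndufaf2, at 0.504, 0.758 and 0.547 against 0.945 and 1.16. Atp5o is annotated across 243 kb, over Donson and Cryzl1 on the same strand, unlike the other members of its list.

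None of the 7 tested genes of the mitochondrial genome list separated the groups, and their median log2 difference was -0.22. This median was -0.49 with 3 of the 7 below after centring within span, and 0.10 in cells with a UMI for at most 1 gene of DNA replication. That last setting kept 61, 13 and 28 late and 22 and 55 early cells, fewest in late replicate 2, which had the highest median depth. Over all noncycling cells the 12 genes of this list, tested or not, summed to 281, 334 and 362 in late and 354 and 347 in early samples, which overlap. All genes with an mt- name, a wider set, took 4.53, 7.53 and 4.76% of a cell's UMIs on average in late samples. In early samples they took 6.21 and 4.54%. The nuclear sum stood at 0.402, 0.30 and 0.308 of the sum of the 12 genes in late and at 0.236 and 0.198 in early samples, with all late samples above. This ratio was not taken against the wider set. mt-Cytb of complex III was at 104, 109.6 and 138 in late and 113 and 119.6 in early samples, and mt-Nd4 of complex I at 95.2, 104 and 119 against 118 and 134. The nuclear genes were of short span, with medians between 5.06 kb for complexes II and III and 10.4 kb for complex I. In deeper cells 30 of the 59 were above and 2 below (median 0.17), and after centring within span 18 were above and 4 below (median 0.11), beside the 16.4% of all genes above under that setting. Around the same pathway, 6 of 14 tested genes of the citric acid cycle were above and none below, among them Suclg1 at 1.51, 1.26 and 1.66 against 0.872 and 0.628, and 7 of 10 tested genes of the mitochondrial ribosome were above. Neither list kept this share. The citric acid cycle had 3 of 14 above and 1 below in deeper cells and 4 above and 1 below after centring within span, and the mitochondrial ribosome had 3 of 13 above and none below in deeper cells and 1 of 10 above and 2 below after centring.

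**Figure D4:**
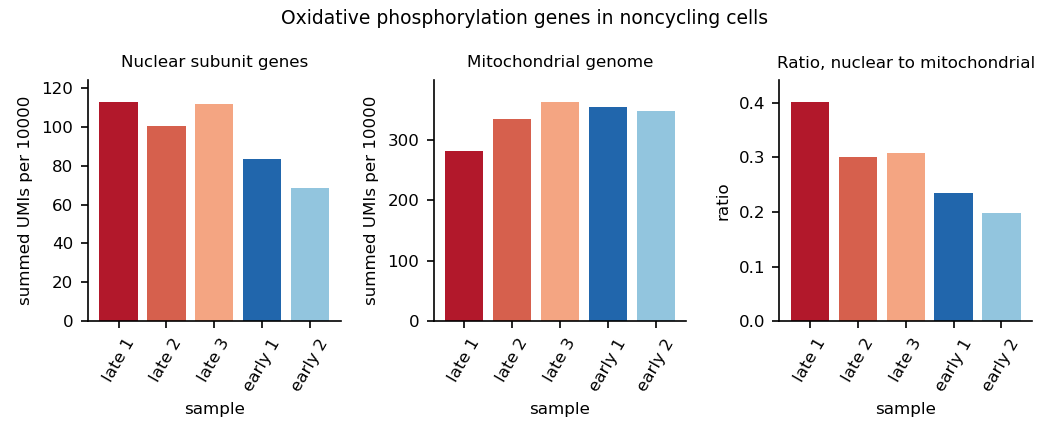
Summed level of all listed nuclear genes of oxidative phosphorylation, summed level of 12 listed genes of the mitochondrial genome, and the ratio of the first to the second. Values are given for each late (red) and early (blue) sample, and the sums include members too low to be tested. The nuclear sum is 100.3 to 113 in late and 68.6 to 83.4 in early samples, while the mitochondrial sums overlap.

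Genes that act against oxidants or bind metals lay above in the late samples in part. Among 14 tested genes that handle peroxide and superoxide, 8 had all late samples above and none below, with a median log2 difference of 0.31. Sod3, a superoxide dismutase secreted from the cell, was at 17.9, 15.1 and 24 in late and 11.1 and 12.2 in early samples (0.64, SE 0.31). Prdx2, a peroxiredoxin, was at 1.54, 1.36 and 1.75 against 0.992 and 0.699, and Gpx1, a glutathione peroxidase, at 1.55, 1.72 and 2.55 against 1.42 and 0.951. In this list 5 members were above and 1 below in deeper cells, and 4 above and 2 below after centring within span. Both tested metallothioneins, small proteins that bind zinc and copper, separated. Mt1 was at 131, 77.0 and 109 in late and 57.0 and 74.3 in early samples (0.66, SE 0.38), and Mt2 at 53.7, 29.9 and 45.9 against 21.4 and 24.8 (0.84, SE 0.36). For Mt1 the gap between late replicate 2 and early replicate 2 was small beside the spread among the late samples, and 1 of the 2 metallothioneins lay above in deeper cells, after centring within span and in cycling cells. Fth1, the heavy chain of the iron store ferritin, was at 16.4, 10.8 and 15.3 against 8.93 and 8.72, and Gclm, which takes part in glutathione synthesis, at 6.12, 6.53 and 5.70 against 4.55 and 3.2. The target list of the oxidant-responsive factor NRF2 held 6 members above and 1 below of 12 tested, the latter being the cystine carrier Slc7a11, at 0.528, 0.772 and 0.669 in late and 0.917 and 1.41 in early samples. This list held 4 above and 1 below of 11 in deeper cells and 7 above and 1 below of 12 after centring. Slc7a11 spans 551 kb and had a log2 difference of 0.07 after centring, so the 1 below under that setting was another member.

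Genes of the route that proteins take into the endoplasmic reticulum and on to the lysosome lay above in the late samples for most of those that separated. In entry to the endoplasmic reticulum and glycosylation 14 of 28 tested members were above and none below (median 0.23), with 12 above and none below in deeper cells and 10 above and 1 below after centring within span. Dad1, a subunit of the oligosaccharyltransferase, was at 4.64, 3.76 and 5.45 in late and 2.86 and 2.87 in early samples (0.53, SE 0.21). Of 21 tested lysosomal genes, 12 were above and none below (median 0.27). Ctsb and Ctsl, proteases that can cut thyroglobulin, were at 28.7, 28.2 and 41.6 against 23.5 and 22.6, and at 23.3, 16.9 and 25.4 against 14.9 and 14.9. Ctsa, a carboxypeptidase of the lysosome, was at 1.62, 2.32 and 3.07 against 1.48 and 1.12. Napsa, an aspartic protease best known from lung and kidney, was at 18.0, 15.4 and 20.1 in late and 12.1 and 8.30 in early samples (0.76, SE 0.30). In deeper cells the lysosomal list fell to 5 above, and after centring within span to 6 above, with none below either time. The proton pump of the lysosome had 8 of 17 members above and 2 below, with 5 above and 2 below in deeper cells and 2 above and 1 below after centring. Of 20 tested chaperones and stress genes of the endoplasmic reticulum, 3 were above and none below, with Ppib at 10.4, 9.78 and 11.9 against 7.27 and 6.87.

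Genes of hormone production itself mostly overlapped between the groups. Thyroglobulin (Tg) was at 139, 82.1 and 168 in late and 79.5 and 138 in early samples. Tshr, the gene of the TSH receptor, was at 4.95, 6.93 and 4.27 against 7.93 and 3.34. In both genes the spread within a group was larger than the gap between the groups. The iodide carrier Slc5a5 (0.508, 0.825 and 0.662 against 0.752 and 0.442), the anion carrier Slc26a7 (3.65, 3.00 and 2.69 against 2.88 and 2.37) and the endocytic receptor Lrp2 (4.0, 2.95 and 2.88 against 3.2 and 3.22) overlapped as well. Iyd, which salvages iodide from hormone precursors, was at 3.29, 1.21 and 2.54 against 1.02 and 1.41 and overlapped through late replicate 2. Of the 10 tested members of this list, 2 lay above and 1 below. Sod3, given above, was among the former, and below was the potassium channel Kcnq1, at 0.505, 0.394 and 0.538 against 0.628 and 0.846. In deeper cells none lay above and 3 below, whereas after centring within span 4 lay above and none below.

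Of the 5 tested thyroid transcription factors, Foxe1 and Hhex had all late samples above. Foxe1 was at 3.16, 2.70 and 3.15 in late and 2.30 and 1.93 in early samples (0.36, SE 0.17), and Hhex at 3.80, 2.59 and 2.63 against 2.41 and 2.44 (0.21, SE 0.19). In deeper cells 2 of the 5 factors lay above and after centring within span 1, with none below either time. After centring the log2 difference was 0.09 for Foxe1 and 0.03 for Hhex. Nkx2-1 (5.64, 2.93 and 3.30 against 3.27 and 2.79), Pax8 (6.35, 4.72 and 4.90 against 5.02 and 3.41) and Glis3 (1.41, 2.65 and 1.08 against 2.54 and 0.938) overlapped. Epithelial genes separated upwards in part. Krt18 and Krt8, a keratin pair of simple epithelia, were at 1.84, 1.04 and 1.88 against 0.719 and 0.859, and at 0.691, 0.498 and 0.917 against 0.337 and 0.414. The tight junction gene Cldn3 was at 1.55, 1.6 and 2.04 against 1.16 and 0.896, and 7 of 17 tested junction genes lay above with none below. In the actin cytoskeleton 11 of 25 were above and 1 below, with Cfl1, which severs actin filaments, at 3.12, 3.86 and 3.96 against 3.02 and 2.06. In deeper cells 4 junction genes and 8 actin genes lay above, with none below in either list, and after centring within span 4 junction genes lay above and 1 below and 6 actin genes above and none below. Of the 3 tested keratins, none lay above and 1 below under either setting.

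**Figure D5:**
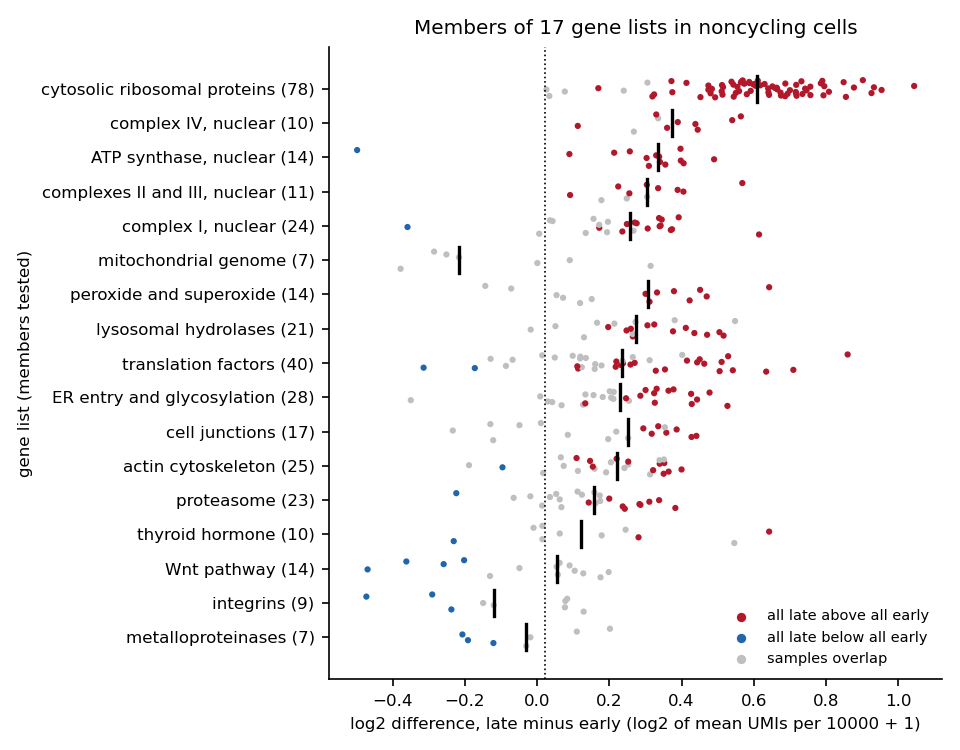
Log2 difference of late minus early for each tested member of 17 gene lists (points), with the list's median (black bar) and the median of all tested genes (dotted line at 0.02). Red points have all late samples above both early samples and blue points all late below. The nuclear and mitochondrial lists of oxidative phosphorylation lie on opposite sides of the dotted line. This did not hold in the 13 to 61 cells a sample with a UMI for at most 1 gene of DNA replication, where the mitochondrial median was 0.10.

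Cell surface and signalling lists showed no common direction. Among 14 tested genes of the Wnt pathway none lay above and 4 below, beside a background of 21.9% below, and the median log2 difference of the list was 0.06. These were Lgr5, a receptor for R-spondin, at 0.876, 0.823 and 1.32 in late and 1.48 and 2.07 in early samples (-0.47, SE 0.16), Wnt5b, a ligand, at 0.919, 0.888 and 0.797 against 1.54 and 1.27 (-0.36, SE 0.12), the nuclear effector Tcf7l2, at 1.29, 1.01 and 0.938 against 1.35 and 1.61, and Znrf3, which removes Wnt receptors from the surface, at 0.550, 0.480 and 0.358 against 0.724 and 0.637. All 4 span over 100 kb. In deeper cells 2 members of the Wnt list lay above and none below, and Tcf7l2 then had a difference of 0.20. After centring within span 1 lay above and 2 below. Of 9 genes matched as integrins by name, 3 lay below, of which Itgb3bp is a kinetochore protein named for its binding to an integrin. Integrins had 3 of 9 below in deeper cells and 2 of 9 after centring. Of 7 tested metalloproteinases 3 lay below, with 2 of 6 below in deeper cells and none after centring. Of 13 tested genes of EGF and FGF signalling, 3 lay above and 3 below. Areg, a ligand of the EGF receptor, was at 1.89, 1.06 and 1.11 in late and 0.789 and 0.819 in early samples, and Errfi1, an inhibitor of that receptor, at 2.92, 1.32 and 1.49 against 1.02 and 0.860. Nrg1, a ligand of related receptors, was at 1.36, 1.34 and 1.59 against 1.68 and 2.78, and Fgfr2, the receptor of FGF10, at 4.54, 4.46 and 4.69 against 5.20 and 8.03. In deeper cells none of this list lay above and 2 below, whereas after centring within span 4 lay above and 1 below.

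Lipid synthesis showed no common direction, with 5 of 20 tested fatty acid genes above and 2 below and 1 of 12 sterol genes above. The fatty acid list had 1 above and 2 below in deeper cells and 5 above and 4 below after centring. Fasn, the fatty acid synthase, was at 5.18, 1.75 and 2.9 in late and 1.52 and 1.51 in early samples (0.69, SE 0.29), and its regulator Srebf1 at 2.74, 2.14 and 1.85 against 1.54 and 1.26. Acacb, which makes malonyl-CoA at the mitochondrion, was at 1.52, 0.602 and 1.14 against 1.82 and 2.67. Ctla4, known as an inhibitory receptor of T cells, was at 7.31, 6.34 and 5.79 in late and 3.73 and 3.34 in early samples (0.72, SE 0.22), beside the immune markers at 0.133 or less in sum. It had a UMI in 89.1, 96.6 and 91.1% of late and 76.3 and 63.9% of early cells, and its annotated span overlaps the pseudogene Rpl18-ps1 on the same strand. Thinned to 1000 UMIs, the shares were 46.4, 45.6 and 44.7% against 31.4 and 27.4%. Ctla4 was also higher in late samples among the cells of at least 8000 UMIs, with a log2 difference of 0.47. Of 10 tested genes of p53 and senescence, 2 lay above and 1 below, which is no more than near the 19.5 and 21.9% of all genes. Rrm2b, a p53 target that supplies deoxynucleotides outside S phase, was at 6.97, 5.36 and 4.25 in late and 3.06 and 3.33 in early samples (0.62, SE 0.23).

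The genes described here with the largest differences towards lower levels in late samples were led by early replicate 2. Primpol, a primase and polymerase that restarts stalled replication forks, was at 1.86, 1.36 and 1.90 in late and 3.66 and 16.0 in early samples (-1.72, SE 0.43). In early replicate 2 it went from 23.5 and 31.7 in the first 2 depth classes to 8.39 and 1.6 in the others. In the other 4 samples it also fell with depth, from between 4.07 and 9.35 in the shallowest to between 0.912 and 1.65 in the deepest cells. In deeper cells its log2 difference was -0.37.

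Among 10 further genes with large differences in this direction, early replicate 1 stood closer to the late mean than to early replicate 2 in all but Rbfox1. Mical2, which oxidises actin, was at 0.965, 0.740 and 0.596 in late and 1.51 and 4.58 in early samples (-1.09, SE 0.27), and Pbx3, a homeobox partner factor, at 2.35, 2.02 and 2.24 against 3.58 and 8.14 (-1.02, SE 0.27). Uaca, Egfem1 and Prkch, the last a protein kinase C, followed the same form, with 1.07 to 1.17 in early replicate 1 and 3.01 to 5.29 in early replicate 2. Hdac9, a histone deacetylase, was at 1.5, 1.41 and 1.78 against 3.06 and 5.28 (-0.98, SE 0.21), the splicing factor gene Rbfox1 at 0.736, 0.850 and 1.00 against 1.88 and 2.81 (-0.83, SE 0.16), and Dlgap1, a synaptic scaffold gene, at 7.30, 6.13 and 8.57 against 11.4 and 17.3 (-0.87, SE 0.29). Kirrel3, an adhesion gene, and Macrod2, an ADP-ribose hydrolase gene, had -0.95 and -0.87. Of these 11 genes, 9 span over 100 kb and 6 of these over 500 kb, with Macrod2 the longest at 1998 kb. In cells of at least 8000 UMIs all 11 kept a negative difference, between -0.09 for Kirrel3 and -0.60 for Hdac9.

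A few genes varied between samples by far more than between passages. Dcpp3, a secreted gland protein gene, was at 4.26, 43.9 and 3.02 in late and 31.7 and 3.09 in early samples. Sftpb, the surfactant protein B gene, was at 3.70, 16.1 and 2.49 against 14.7 and 1.90, and the long noncoding RNA Malat1 at 14.3, 27.1 and 8.55 against 26.9 and 10.3. In all 3 the same pair, late replicate 2 and early replicate 1, held the highest values, and none of the 6 tested members of the secreted protein list separated late from early.

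The same comparison in the cycling cells is given beside it, and both rest on the same 5 samples. Of 4810 genes tested there 1 passed, again Rpsa-ps10. In cycling cells 69 of 78 ribosomal protein genes lay above and none below, and 13 of 28 genes of complex I and 7 of 14 of ATP synthase lay above with none below. Their nuclear oxidative phosphorylation genes summed to 125, 105 and 122.8 in late and 90.8 and 85.2 in early samples. Of the lysosomal list, 5 of 22 members lay above there, against 12 of 21 in noncycling cells. The background also differed between the 2 classes of cells. In cycling cells 43.3% of all genes of up to 5 kb lay above, 34.3% of those of 5 to 10 kb, 21.2% of those of 10 to 20 kb and 14.8% of those of 20 to 50 kb. In noncycling cells these shares were 52.9, 40.7, 36.2 and 22.3%. The median log2 difference of genes over 500 kb was -0.34 in cycling and -0.43 in noncycling cells. When the passage difference was tested for a difference between the 2 classes of cells with limma, 1 of 4330 genes passed (Benjamini-Hochberg adjusted p under 0.05) and 305 had an unadjusted p under 0.05.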

How the data were processed

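Single-cell transcriptomes were made by SORT-seq, which sorts DAPI-negative cells into 384-well plates and adds UMIs by CEL-seq2 chemistry. A single table was deposited, with 30879 genes and 2590 cells, in which each value is a natural log (ln) of UMIs scaled to 10000 a cell after adding 1. Per the labels, Trim Galore 0.4.3, STAR 2.5.3a and Seurat were used, with GRCm38 (mm10). The cell filter, the annotation and the handling of strand and of reads with several matches are not given in the sources used here. UMIs were recovered by undoing the log and dividing by each cell's smallest non-zero value, which gave whole numbers within 0.01 for 100% of values. Doublets were not called.

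Groups were taken from the passage label. Levels were averaged over cells per sample, log2-transformed with a pseudocount of 1 and compared by limma 3.58.1 (R 4.3.3, two-sided, with an intensity trend in the empirical Bayes step and Benjamini-Hochberg adjustment). A log2 difference on this scale understates the change of low genes. A gene was tested if its 2 group means averaged 0.5 or more. The fit was tested on simulated data. Intervals of depth cover counting error only and were not computed for means over cells.

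The members and the 73 gene lists were chosen with earlier results of these data known. Genes were named if they passed the threshold, if they were among the 12 largest differences in each direction without overlap (at 1 or more in each sample of the higher group, ribosomal protein genes and unnamed genes left out), if they were among the 4 largest differences without overlap of a list or otherwise the 2 highest members, or if they were thyroid genes. Rpsa, Ndufaf2, Rpl9-ps6, Cep128 and the C1qa, Gcm2 and Krt5 markers were named after their values were seen. Some genes that the rule names are not reported here. Spans and positions are from GENCODE M21 (GRCm38). Alternatives are described in the closing section.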

Additional observations from a re-analysis of the deposited data

Results flagged for a closer look

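The passage difference of Cep128, which encodes a protein of the mother centriole, differed between noncycling and cycling cells by 1.06 on the log2 scale (limma on each sample's difference between the 2 classes of cells, Benjamini-Hochberg adjusted p = 0.00773 over 4330 genes). In noncycling cells the late samples were at 1.17, 2.32 and 1.1 and the early samples at 1.53 and 1.54, which overlap. In cycling cells the late samples were at 0.777, 1.47 and 0.778 and the early samples at 2.71 and 3.87, with all late samples below both early samples. The passage difference within cycling cells was -1.1 and did not pass the adjusted threshold there (limma adjusted p = 0.349).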

How the results depend on the processing

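No paired analysis was possible because the labels do not match late to early samples. The replicate numbers used here only follow the order of the samples within each group and pair none of them. The results were computed under 24 alternatives, of which cells of at least 8000 UMIs, scaling over genes of at most 20 kb and centring within span were chosen after the data were seen. The count of genes past the threshold was 1 under 17 of them. It was 2 with cells limited to at most 1 S phase gene and 2 with cells thinned to 1000 UMIs, 20 with scaling over genes of at most 20 kb, 37 with median UMIs as a term, 427 with the cycling share as a term and 0 of 30032 genes with no filter on low values, where limma gave 4013 genes an unadjusted p under 0.05. Leaving out 1 sample gave 1 to 415 genes, with 415 without early replicate 1, and the 1 gene without early replicate 2 was not Rpsa-ps10. Genes with all late samples above numbered 547 with the S phase limit, 596 in cells of at least 8000 UMIs, 1988, 210 and 2904 with a filter of 0.1, a filter of 2 and no filter (of 12162, 739 and 30032 genes tested), 503 of 2774 with scaling over short genes, and 1077 to 1703 with 1 sample left out (1703 without early replicate 1 and 1439 without late replicate 2). Genes with all late samples below numbered 670 after centring within span, 2796, 155 and 5826 with the 3 filters, 430 with scaling over short genes, and 1119 to 1649 with 1 sample left out (1649 without early replicate 1 and 1625 without early replicate 2), where fewer samples have to separate. Rpsa-ps10 kept its direction throughout, with adjusted p = 0.104 with no filter and 0.0509 without early replicate 2. Of the genes with a printed difference, 26 were followed through the alternatives. Of these, 25 kept their direction under every alternative in which they were tested (long or low genes drop out of scaling over short genes and of the filter of 2). Tcf7l2 reversed to 0.20 in cells of at least 8000 UMIs. Other genes described above were not among the 26, and some of them reversed too. After centring within span Slc7a11, Nrg1, Fgfr2 and Kcnq1 were at 0.07, 0.06, 0.02 and 0.02. Fgfr2 is annotated across 2961 kb, over Ate1, Oat, Ctbp2 and other genes on the same strand, which put it in the longest class. Acacb was at 0.11 in cells of at least 8000 UMIs. Depth limits the lowest genes most, since Rpsa-ps10 rested on 39 UMIs in early replicate 1. The causes of these changes were not tested.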

Other observations

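Several lists not described above separated in part. In RNA splicing 13 of 35 tested genes lay above and 2 below, and in the proteasome 9 of 23 lay above and 1 below, beside 19.5 and 21.9% of all genes. In deeper cells the counts were 6 above and 2 below of 37 splicing genes and 11 above and none below of 28 proteasome genes, and after centring within span they were 6 above and 3 below of 35 and 8 above and 3 below of 23. Of 6 tested immediate early genes 3 lay above and none below, with Jund, a subunit of the factor AP-1, at 1.28, 0.723 and 1.22 in late and 0.452 and 0.704 in early samples, and none separated in deeper cells or after centring. None of 5 tested Notch genes separated, 2 of 8 tested MHC class I genes lay above and none below, and no MHC class II gene was high enough to be tested. Of 8 tested genes of the retinoid list 2 lay below, which is near the 21.9% of all genes. Among them was Aldh1a2, which makes retinoic acid, at 0.625, 0.598 and 0.456 in late and 0.845 and 0.830 in early samples. Of 6 tested genes of dense core granules, Pcsk2, a prohormone convertase that spans 270 kb, lay below at 1.08, 1.30 and 1.34 against 2.06 and 2.79.

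Of 28 tested pseudogenes of ribosomal proteins, 19 had all late samples above and none below, and the 19 included Rpsa-ps10. Over all tested genes 19.5% lay above and 21.9% below, and among all genes of up to 5 kb 52.9% lay above and 5% below. Counts in deeper cells and after centring within span were not taken for these pseudogenes. Rpl9-ps6 was at 7.69, 5.23 and 5.27 in late and 3.21 and 2.57 in early samples, a log2 difference of 0.85, beside 2.14 for Rpsa-ps10. Reads that such genes share with the genes they were copied from cannot be told apart by sequence.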
